A study of Mus musculus with 4 samples.

Results

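The PGC-1 coactivators and the factors of mitochondrial biogenesis that work with them were followed in the liver transcriptome of *Usp21* KO mice. The set holds 9 genes, *Ppargc1a*, *Ppargc1b*, *Pprc1*, *Esrra*, *Nrf1*, *Gabpa*, *Tfam*, *Tfb1m* and *Tfb2m*, chosen by symbol among the 35739 genes of the deposited salmon table. RNA-seq libraries of 4 livers were compared, 2 of WT mice (replicates 2 and 3) and 2 of *Usp21* KO mice (replicates 1 and 3). The KO allele was made in 129/Sv ES cells by Cre-mediated removal of exons 3 and 4 of *Usp21*, which puts a premature stop codon in exon 5, and the KO is constitutive. WT and KO animals were littermates of a mixed B6 and 129/Sv background, 10 to 11 weeks old, on a normal diet. The Cre driver, the feeding state and the hour at which the livers were taken are not given in the sources used here.

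PGC-1α (*Ppargc1a*) is a transcriptional coactivator that is induced in the liver during fasting and drives gluconeogenesis and fatty acid oxidation. It binds no DNA itself and acts through partners such as ERRα (*Esrra*), nuclear respiratory factor 1 (*Nrf1*) and the ETS factor GABP, whose DNA-binding subunit is *Gabpa*. These factors switch on nuclear genes for mitochondrial proteins, among them *Tfam*, *Tfb1m* and *Tfb2m*, whose products enter mitochondria to package, modify and transcribe what the mitochondrial genome encodes.

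All levels are TPM, which salmon corrects for transcript length, so they can be compared between genes. Differences were tested with limma on log2(TPM + 1) over 9581 genes whose mean reached 1 TPM, two-sided, and p-values were adjusted over all of them after Benjamini-Hochberg. For genes of low TPM this scale gives a smaller difference than the ratio of levels would. The libraries held between 12876 and 13620 genes above 0, and TPM keeps no record of sequencing depth. In the second deposited table, TMM-normalized CPM from HTSeq counts, between 102898 and 148164 reads per library fell on genes, and 530 of the 817 genes that averaged 100 TPM or more were at 0 in all 4 libraries. Of the 9 factors, 6 were at 0 there, so that table entered only as an alternative. *Usp21* itself had 4.07 and 6.29 TPM in the WT livers against 1.64 and 2.93 TPM in the KO livers (log2 fold change -0.92, 95% interval -1.73 to -0.10, adjusted p = 0.464 from limma). The exons outside the deletion remain in the KO allele and can still be counted, but which exons gave the KO signal was not tested. Hepatocyte markers such as *Alb* (27475 to 43181 TPM) were abundant in every library, while 5 of 6 muscle and brown fat markers, *Ucp1* among them, were at 0 throughout.

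The factors spanned a wide range of levels. *Tfam* was the most abundant in every library, between 15.3 and 31.9 TPM, and its lowest library was above the highest library of any other factor. *Tfb2m* (7.45 to 12.5 TPM), *Esrra* (6.06 to 10.3 TPM) and *Gabpa* (5.84 to 8.21 TPM) followed, with ranges that overlapped. *Tfb1m* lay at 3.76 to 6.71 TPM and *Nrf1* at 2.00 to 4.53 TPM, and neither range was separated from its neighbour. The coactivators were the least abundant, with *Pprc1* at 0.944 to 2.89 TPM, *Ppargc1a* at 0.482 to 2.43 TPM and *Ppargc1b* at 0.381 to 1.41 TPM. Among tested genes, the mean level of *Ppargc1a* stood at percentile 3.85 and that of *Tfam* at percentile 75.3. *Ppargc1b* had a mean of 0.763 TPM, under the filter, and was fitted without it, which left 8 of the 9 factors in the main test.

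**Figure D1:**
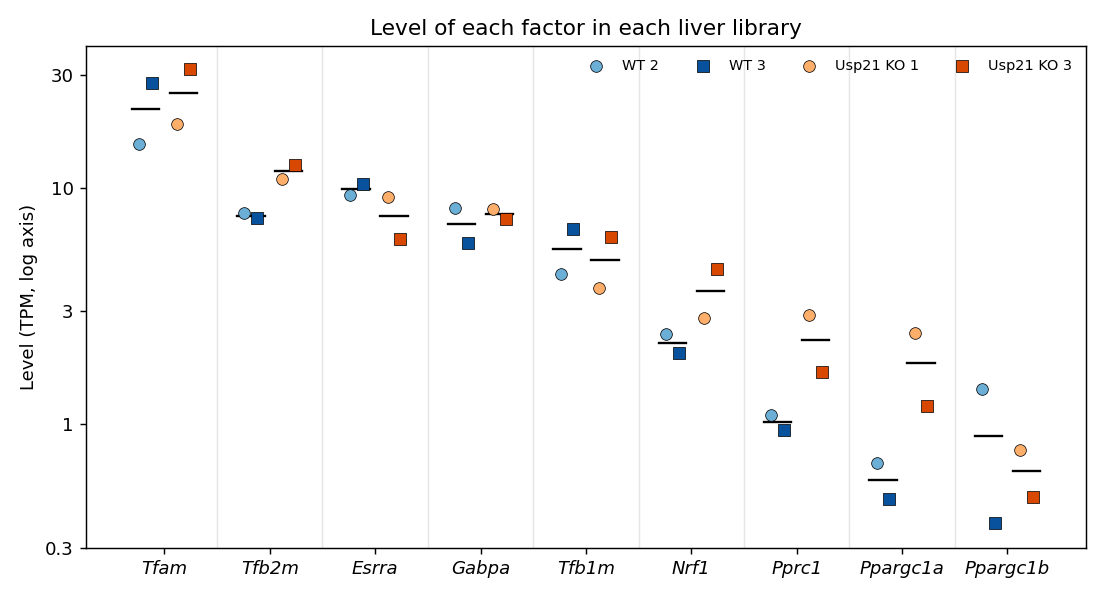
Level of each of the 9 factors (TPM, log axis) in the WT replicates 2 and 3 and the *Usp21* KO replicates 1 and 3, ordered by mean level, with a line at each genotype mean. *Tfam* sat at the top in every library (15.3 to 31.9 TPM), and each KO library exceeded each WT library for *Tfb2m*, *Nrf1*, *Pprc1* and *Ppargc1a*.

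By mean log2(TPM + 1), 6 of the 9 factors were higher in KO livers, compared with 66.7% of all tested genes. In bulk RNA, fewer cells of a type and less RNA per cell cannot be told apart. The genotypes did not overlap for 5 factors, as for 45.3% of tested genes. Each KO library exceeded each WT library for 4 of them (*Ppargc1a*, *Pprc1*, *Nrf1* and *Tfb2m*), against a background of 34.4% of tested genes. *Esrra* alone had each KO library under each WT library, which 10.9% of tested genes did. After adjustment in limma 0 of the 9 factors had a p under 0.05, as did 0.0835% of tested genes. Without adjustment 1 factor did, *Tfb2m*, compared with 10.5% of tested genes (8.45% higher and 2.04% lower in KO livers). On log2(TPM + 1), a difference of at least 2-fold was reached by 0 factors and by 3.68% of tested genes (2.59% higher and 1.1% lower). As ratios of mean TPM, *Ppargc1a* (3.11) and *Pprc1* (2.24) exceeded 2, and no other factor differed by as much. The share of tested genes beyond that ratio was not counted. The median difference over all tested genes was 0.15, and 0.07 when libraries were scaled to an equal upper quartile.

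**Figure D2:**
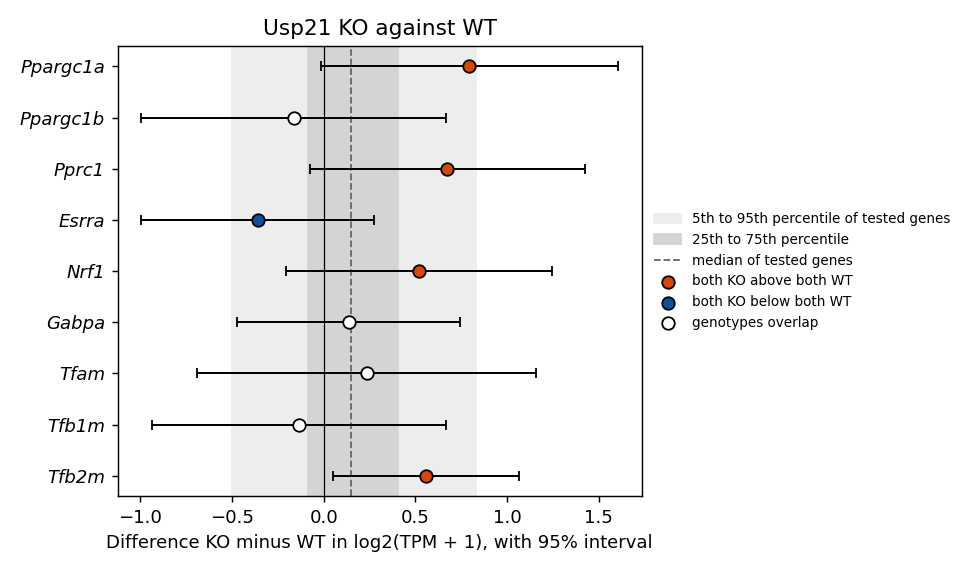
Difference KO minus WT in log2(TPM + 1) for each factor, with its 95% interval from limma, over bands for the 5th to 95th and 25th to 75th percentiles of the 9581 tested genes and a dashed line at their median of 0.15. The interval of *Tfb2m* (0.05 to 1.07) was the only one of the 9 without 0, and all 9 intervals included the median of all genes.

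*Ppargc1a* (ENSMUSG00000029167, chromosome 5, 51454250 to 51567726, reverse strand, GRCm38) was at 0.681 TPM in WT replicate 2, 0.482 TPM in WT replicate 3, 2.43 TPM in KO replicate 1 and 1.19 TPM in KO replicate 3. Each KO library exceeded both WT libraries, and KO replicate 1 was the highest. The means were 0.582 ± 0.141 and 1.81 ± 0.875 TPM (SD, n = 2 per genotype), and the difference of 0.80 had a 95% interval of -0.02 to 1.61 (adjusted p = 0.477 from limma). That difference lay at percentile 94.3 of all tested genes. It was 0.47 without KO replicate 1 and 1.12 without KO replicate 3, and with pseudocounts of 0.1 and 5 it was 1.42 and 0.28. The study selected *Ppargc1a* from these same libraries, so its direction in them is not independent evidence. By RT-qPCR the study also reported higher *Ppargc1a* in KO than in WT livers, and those values were not examined here.

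*Pprc1* (ENSMUSG00000055491, chromosome 19, 46044886 to 46072915, forward strand), the serum-inducible member of the family, had the same order of libraries as *Ppargc1a*. It had 1.09 and 0.944 TPM in the WT livers against 2.89 and 1.66 TPM in the KO livers, again with KO replicate 1 the highest and no overlap. Its difference of 0.68 (95% interval -0.07 to 1.42, adjusted p = 0.489 from limma) stood at percentile 90.8, and it was 0.40 without KO replicate 1. The gene overlaps *Ldb1* on the opposite strand over 329 bases, and since the strand setting is not known, reads from this stretch cannot be told apart. The transcripts of *Pprc1* and *Ldb1* share 148 stretches of 31 bases, or 2.28% of those of *Pprc1*.

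*Ppargc1b* (ENSMUSG00000033871), which encodes PGC-1β, a coactivator of ERRα and of lipogenic factors, was not ordered by genotype. WT replicate 2 was the highest library at 1.41 TPM and WT replicate 3 the lowest at 0.381 TPM, while the KO libraries at 0.776 and 0.490 TPM lay between them. The difference was -0.16 (95% interval -0.99 to 0.67, adjusted p = 0.873 from limma without the filter). Leaving out WT replicate 2 gave 0.24 and leaving out WT replicate 3 gave -0.56, so its sign rested on WT replicate 2.

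Within a library, the proportions of the coactivators do not depend on how the libraries are scaled. *Ppargc1a* made up 21.4% and 26.7% of the summed PGC-1 family TPM in WT and 39.8% and 35.6% in KO livers. Its share was therefore higher in each KO library than in each WT library, by 13.6 percentage points between the means, and by 11 to 16.3 points when single libraries were omitted. The exact permutation test (two-sided) gave p = 0.333, the smallest value that 2 libraries against 2 allow. *Ppargc1b* made up 44.2% and 21.1% in WT and 12.7% and 14.7% in KO livers, which did not overlap either (exact permutation p = 0.333). Shares of the same sum are not independent of each other, and by TPM *Ppargc1b* itself overlapped between genotypes. For *Pprc1* the shares overlapped, at 34.4% and 52.2% in WT and 47.5% and 49.8% in KO. The summed TPM of the family was 3.18 and 1.81 in WT and 6.10 and 3.34 in KO livers, and WT replicate 2 lay just under KO replicate 3. There were 0.485 and 1.26 *Ppargc1a* transcripts for each *Ppargc1b* transcript in WT, and 3.13 and 2.43 in KO livers.

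**Figure D3:**
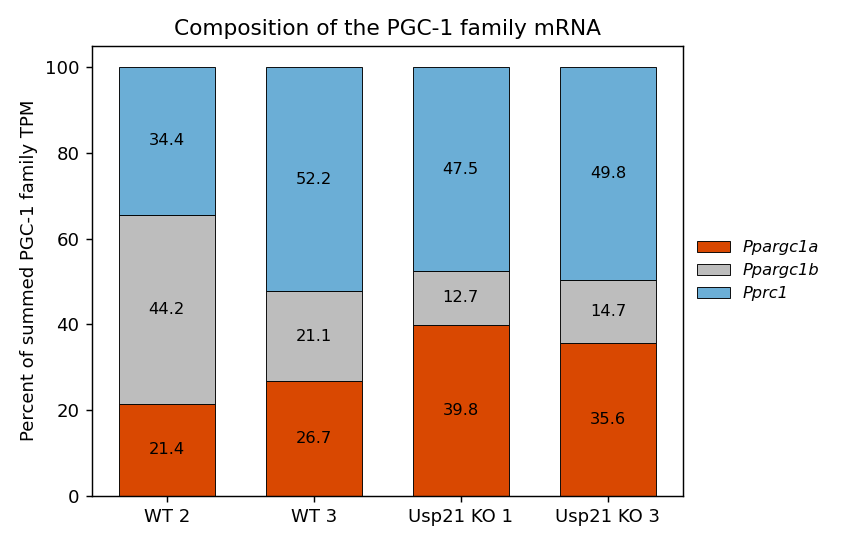
Percent of the summed TPM of *Ppargc1a*, *Ppargc1b* and *Pprc1* that each gene contributed in each library, as stacked bars from 0 to 100%. The *Ppargc1a* part was 21.4% and 26.7% in WT and 39.8% and 35.6% in *Usp21* KO livers, while *Ppargc1b* ranged from 12.7% to 44.2%.

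Among the DNA-binding partners, *Nrf1* was higher, *Esrra* lower and *Gabpa* overlapping between genotypes, and none passed the adjusted threshold. *Nrf1* (ENSMUSG00000058440, chromosome 6, 30047988 to 30153458, forward strand), a DNA-binding activator of respiratory chain and *Tfam* genes, had 2.41 and 2.00 TPM in the WT livers against 2.81 and 4.53 TPM in the KO livers. The libraries did not overlap, and KO replicate 3 was the highest. The difference of 0.52 (95% interval -0.20 to 1.25, adjusted p = 0.536 from limma) was 0.25 without KO replicate 3, and the gap between the KO libraries, 0.54, was larger than the difference between genotypes.

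*Esrra* (ENSMUSG00000024955, chromosome 19, 6910977 to 6921813, reverse strand), an orphan nuclear receptor that PGC-1α both coactivates and induces, had 9.36 and 10.3 TPM in the WT livers against 9.11 and 6.06 TPM in the KO livers. The genotypes did not overlap, but KO replicate 1 lay just under WT replicate 2. The difference of -0.36 (95% interval -0.99 to 0.28, adjusted p = 0.612 from limma) was -0.10 without KO replicate 3. In the CPM table it had the opposite sign (1.74), on 0 and 1 reads in WT and 5 and 3 reads in KO livers. By TPM *Esrra* was lower in KO livers while its coactivator *Ppargc1a* was higher, and neither difference passed the adjusted threshold.

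*Gabpa* (ENSMUSG00000008976, chromosome 16, 84834925 to 84863779, forward strand) had 8.21 and 5.84 TPM in the WT livers against 8.10 and 7.37 TPM in the KO livers, both KO libraries lying between the WT libraries. Its difference of 0.14 (95% interval -0.47 to 0.75, adjusted p = 0.846 from limma) was -0.08 without WT replicate 3. It overlaps *Atp5j*, a subunit gene of ATP synthase on the opposite strand, over 701 bases, and 3.84% of its 31-base stretches occur in *Atp5j*, which was listed at 301 to 452 TPM.

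In the promoters, taken from RefSeq on GRCm38.p6 as 250 bases before to 50 bases after a start site, an ETS motif of the kind that GABP binds (CCGGAAG, searched on both strands) was found for 2 of the 8 factors with a promoter sequence, *Tfam* and *Gabpa*. The motif occurs in 8.86% of all 32851 promoters of this length. The windows are shown because they place a letter match for GABP near a RefSeq start site of *Tfam* and of *Gabpa* itself. The match is in capitals, and the second match reads CCGGAAG on the other strand. Upstream is counted from the RefSeq start site. By the GENCODE spans given for *Tfam* and *Gabpa* in this report, both windows lie inside the gene.
Tfam (chr10:71238074-71238102, reverse strand, match starting 47 bases upstream): cctgccgcggaCCGGAAGtccgggcttcc
Gabpa (chr16:84835020-84835048, forward strand, match starting 93 bases upstream): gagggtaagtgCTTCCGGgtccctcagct
The NRF-1 motif, the letters TCAAGGTCA of an ERR site and TGACGTCA of a cyclic AMP response element were also searched on both strands. They were found in 4.6%, 0.423% and 1.79% of the promoters searched and in 0 of these 8 factors. *Tfam* and *Gabpa*, whose promoters hold the match, both had overlapping genotypes.

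Of the factors that act inside mitochondria, *Tfam* and *Tfb1m* differed more within genotypes than between them, and *Tfb2m* did not. *Tfam* (ENSMUSG00000003923, chromosome 10, 71225464 to 71238280, reverse strand), the protein that coats mitochondrial DNA and bends its promoters, was at 15.3 TPM in WT replicate 2, 27.7 TPM in WT replicate 3, 18.6 TPM in KO replicate 1 and 31.9 TPM in KO replicate 3. Replicate 3 was the higher library in each genotype, and the genotypes overlapped. The difference of 0.23 (95% interval -0.69 to 1.16, adjusted p = 0.825 from limma) was smaller than the gaps within WT (0.82) and within KO (0.75). Leaving out WT replicate 2 gave -0.17, and leaving out KO replicate 3 gave -0.14.

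*Tfb1m* (ENSMUSG00000036983, chromosome 17, 3519256 to 3557781, reverse strand), the methyltransferase of the small mitochondrial ribosomal RNA, was also higher in replicate 3 of each genotype. It had 4.33 and 6.71 TPM in the WT livers against 3.76 and 6.16 TPM in the KO livers, with a difference of -0.13 (95% interval -0.94 to 0.67, adjusted p = 0.886 from limma). The sign of this difference was positive without WT replicate 3 (0.13) and without KO replicate 1 (0.16). Replicate numbers only name the mice here, since the labels do not say that a number marks a shared litter or day.

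*Tfb2m* (ENSMUSG00000026492, chromosome 1, 179528055 to 179546267, reverse strand), the transcription initiation factor of the mitochondrial RNA polymerase, had the closest WT libraries of the set. The WT libraries had 7.79 and 7.45 TPM and the KO libraries 10.9 and 12.5 TPM, with means of 7.62 ± 0.245 and 11.7 ± 1.14 TPM (SD, n = 2 per genotype). No KO library came near a WT library, and the ratio of the means was 1.54. The difference was 0.56 (standard error 0.20, 95% interval 0.05 to 1.07), with an unadjusted p of 0.0364 from limma and an adjusted p of 0.464. It ranked 750 among the p-values of the 9581 tested genes, it lay between 0.47 and 0.65 when single libraries were omitted, and it was 0.47 with upper quartile scaling. Of the 31-base stretches of *Tfb2m* transcripts, 35.2% also occur in the pseudogene *Gm1818* on chromosome 12. Salmon listed *Gm1818* at 0 in all 4 libraries, and a different division of shared reads between the 2 genes would change the TPM of *Tfb2m*.

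The transcripts of the rRNA methyltransferase paralogs can also be set against each other. The ratio of *Tfb1m* to *Tfb2m* was 0.556 and 0.901 in WT and 0.345 and 0.492 in KO livers, so that both KO ratios were below both WT ratios (exact permutation p = 0.333, the smallest possible). The ratio of *Tfam* to the sum of *Tfb1m* and *Tfb2m* overlapped between genotypes, at 1.26 and 1.96 in WT and 1.27 and 1.71 in KO.

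Between-genotype differences were larger than the gaps within both genotypes for 3 of the 9 factors, *Ppargc1a*, *Pprc1* and *Tfb2m*. The share of all tested genes that met this rule was not counted, so the number only describes the set. The gaps were uneven between genotypes. For *Ppargc1a*, *Pprc1*, *Esrra* and *Nrf1* the KO libraries differed by 0.52 to 0.65 and the WT libraries by 0.11 to 0.19. *Ppargc1b* showed the reverse, with a gap of 0.80 in WT and 0.25 in KO.

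**Figure D4:**
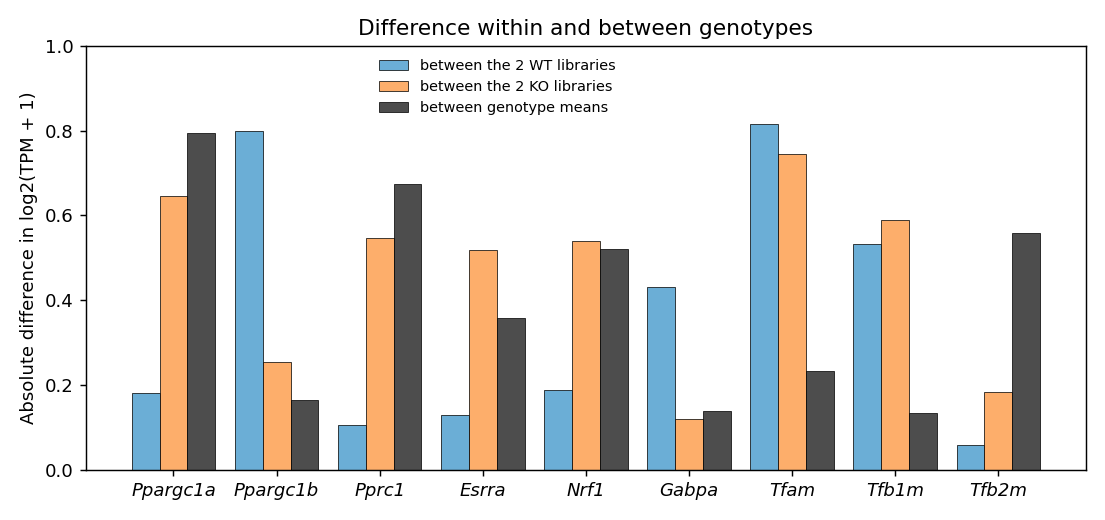
Absolute difference in log2(TPM + 1) between the 2 WT libraries, between the 2 KO libraries and between the genotype means for each factor, as bars from 0. The genotype bar was the tallest for *Ppargc1a* (0.80), *Pprc1* (0.68) and *Tfb2m* (0.56), and the shortest for *Ppargc1b*, *Tfam* and *Tfb1m*.

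The genes whose profile over the 4 libraries was closest to that of *Ppargc1a* were *Ralgapa2*, *Hnrnpa2b1*, *Ing4*, *Agrn* and *Appl2*, at Euclidean distances of 0.07 to 0.09 between centred log2(TPM + 1) values. They shared its order of libraries, with differences of 0.72 to 0.81, and none of the other 8 factors was among these 5 nearest genes. With 4 libraries many genes share an order, so the distance only describes these profiles.

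Around the 9 factors, 10 lists covered the partners, regulators and targets of PGC-1 and the mitochondrial machinery, with 218 tested genes in all. By mean, 144 were higher and 74 lower in KO livers (66.1% higher, against 66.7% of all tested genes). The counts and medians of the single lists below stand beside that 66.7% and the median of 0.15 over all tested genes. The genotypes did not overlap for 71 higher genes (32.6%, background 34.4%) and 23 lower genes (10.6%, background 10.9%). An adjusted p under 0.05 in limma was found for 0 of them, and an unadjusted p under 0.05 for 15 higher and 2 lower genes (6.88% and 0.917%, against 8.45% and 2.04% of all tested genes).

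Among the partner receptors and coregulators of PGC-1, 16 of 20 tested genes were higher and 4 lower by mean, with a median difference of 0.48. The higher genes were 80% of the list, against 66.7% of all tested genes, and 14 (70%, against 34.4%) were higher without overlap. The median lay between 0.31 (without KO replicate 1) and 0.54 when single libraries were omitted, and it was 0.64 and 0.21 with pseudocounts of 0.1 and 5. *Hnf4a*, the hepatocyte nuclear receptor through which PGC-1α acts on gluconeogenic genes, had 112 and 105 TPM in the WT livers against 171 and 155 TPM in the KO livers (difference 0.59, adjusted p = 0.464 from limma). *Foxo1*, the insulin-restrained factor that also recruits PGC-1α, differed by 0.63 (adjusted p = 0.473). *Lpin1*, a lipid phosphatase that also serves as a nuclear cofactor of PGC-1α and PPARα, differed by 1.73 (adjusted p = 0.432), and it too was picked by the study from these libraries. *Ppara* itself had 11.6 and 12.8 TPM in the WT livers against 13.2 and 13.9 TPM in the KO livers, a difference of 0.15.

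Of the 17 tested upstream regulators of PGC-1α, 12 were higher and 5 lower, with a median of 0.27 (0.18 without KO replicate 1). *Creb1*, the cyclic AMP responsive factor that induces *Ppargc1a* in fasting, was at 0.681 and 1.12 TPM in the WT livers against 2.59 and 2.12 TPM in the KO livers (difference 0.83, adjusted p = 0.464 from limma). *Sirt1*, the deacetylase that activates PGC-1α, differed by 0.66, and *Mybbp1a*, a repressor of PGC-1α, by 0.74, so that an activator and a repressor stood higher side by side. *Crtc2*, the coactivator of CREB, overlapped between genotypes with a difference of -0.10.

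The liver targets of PGC-1α had a median of 0.14, close to the 0.15 of all tested genes, with 10 of 15 higher and 5 lower. *Pck1*, the first committed enzyme of gluconeogenesis, was at 476 to 560 TPM in WT and 581 to 853 TPM in KO livers (difference 0.45). *G6pc1*, glucose-6-phosphatase, had 22.4 and 31.6 TPM in the WT livers against 56.4 and 173 TPM in the KO livers (difference 1.85, adjusted p = 0.464 from limma). *Cpt1a*, the carnitine transferase that admits fatty acids to mitochondria, differed by 0.54, and *Pdk4*, the kinase that closes pyruvate dehydrogenase, by 1.00. The level of *Pdk4* was low, at 0.457 and 0.423 TPM in the WT livers against 1.25 and 2.69 TPM in the KO livers. Among the 5 lower targets *Alas1* had the largest difference (-0.44), with overlapping genotypes. The antioxidant targets *Sod2*, *Gpx1* and *Prdx3* differed by -0.05, -0.01 and -0.02, and *Acadm* and *Acadvl*, of fatty acid oxidation, by 0.14 and 0.02, with overlapping genotypes for all but *Sod2*. *Cpt2*, also of fatty acid oxidation, differed by 0.77 without overlap (adjusted p = 0.475 from limma). The median of the list was 0.44 without KO replicate 1 and -0.05 without WT replicate 3.

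Genes of mitochondrial DNA replication and transcription, the direct neighbours of *Tfam* and *Tfb2m*, had 12 of 17 higher and 5 lower and a median of 0.20 (-0.03 without KO replicate 1). *Tk2*, the mitochondrial thymidine kinase, had 7.85 and 6.37 TPM in the WT livers against 10.6 and 11.1 TPM in the KO livers (difference 0.55, adjusted p = 0.472 from limma). *Polrmt*, the RNA polymerase that *Tfb2m* serves, had 5.10 and 11.7 TPM in the WT livers against 14.9 and 5.60 TPM in the KO livers, with overlapping genotypes.

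For the rRNA modification and ribosome assembly factors, where *Tfb1m* belongs by function, 12 of 13 were higher (92.3%, against 66.7% of all tested genes). The median was 0.29 (-0.03 without KO replicate 1). *Fastkd2*, an RNA-binding protein of mitochondrial RNA granules, had 4.0 and 4.03 TPM in the WT livers against 13.6 and 9.64 TPM in the KO livers, a difference of 1.31 (adjusted p = 0.373 from limma). *Dhx30*, a helicase of the same granules, had 3.20 and 2.71 TPM in the WT livers against 6.83 and 6.71 TPM in the KO livers, a difference of 0.98 (adjusted p = 0.453). The 78 mitochondrial ribosomal proteins themselves were nearly balanced, with 42 higher and 36 lower and a median of 0.05, which became -0.05 with upper quartile scaling and -0.07 without KO replicate 1. Among them *Mrps6* had the lowest p (difference 0.66, adjusted p = 0.464).

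Downstream, the tricarboxylic acid cycle genes had 9 of 16 higher and a median of 0.13. That median was -0.06 without KO replicate 1, 0.33 without KO replicate 3 and -0.34 over the 6 genes with reads in the CPM table. Within the list *Fh1*, fumarate hydratase, differed by 0.74 (adjusted p = 0.472 from limma). The list of cytochrome c, protein import and oxidase assembly genes had 12 of 15 higher (80%, against 66.7% of all tested genes). Its median was 0.22 (0.14 without WT replicate 2 or KO replicate 1). Within it *Sco1*, a copper chaperone of cytochrome oxidase, was higher by 0.63 and *Cox10*, which makes the heme of that enzyme, was lower by mean, with a difference of -0.72 (adjusted p = 0.472 and 0.464). Mitochondrial dynamics and mitophagy genes had 9 of 14 higher and a median of 0.10. It was 0.06 when WT replicate 2 or WT replicate 3 was omitted, 0.16 without KO replicate 3, 0.0099 with upper quartile scaling and -0.50 over the 3 genes with reads in the CPM table. Among these genes *Fis1*, a fission factor, had a difference of -0.53 (adjusted p = 0.464).

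The mRNAs encoded in mitochondrial DNA, which *Tfam* and *Tfb2m* are needed to transcribe, held 16.3% and 11.6% of all TPM in WT and 16.5% and 15.5% in KO livers. WT replicate 3 stood apart as the lowest library. Of the 13 mRNAs, 10 were higher and 3 lower by mean, with a median of 0.20, which became 0.60 when WT replicate 2 was omitted and -0.08 when WT replicate 3 was. The library with the lowest share, WT replicate 3, was not the lowest for *Tfam* (27.7 TPM). *mt-Nd3* ranged from 384 to 4946 TPM and *mt-Nd4l* from 515 to 6926 TPM, each with a wide gap inside both genotypes.

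**Figure D5:**
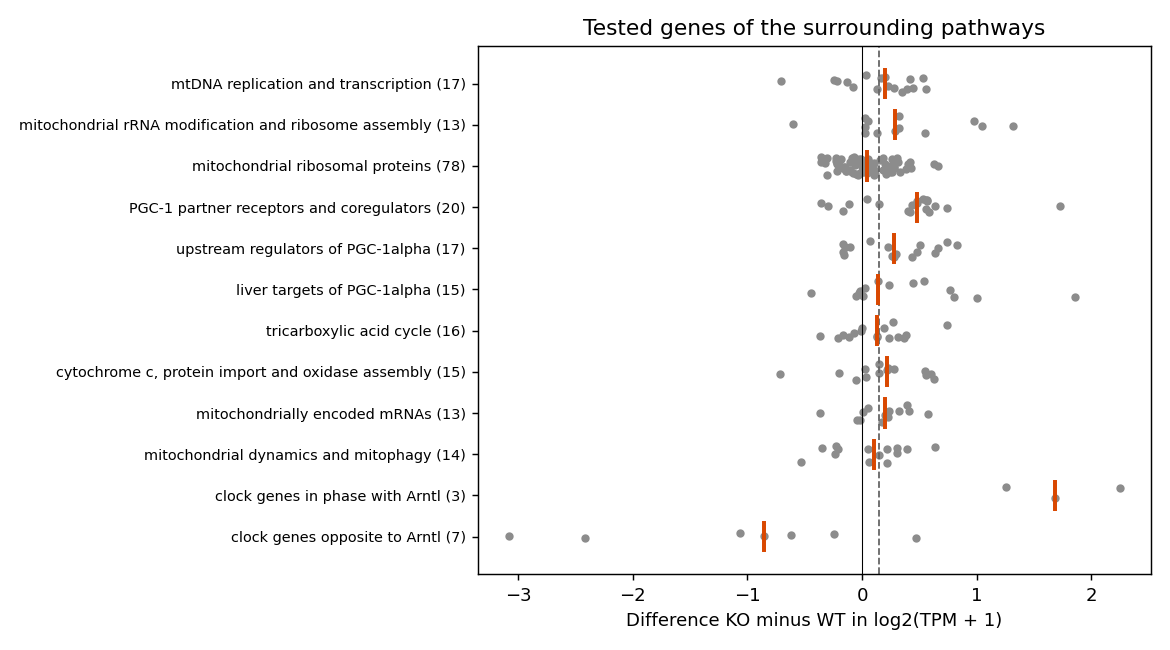
Difference KO minus WT in log2(TPM + 1) of each tested gene (grey points) in the 10 PGC-1 and mitochondrial lists and 2 clock lists, with the number tested in parentheses, list medians as orange bars and the median of all tested genes (0.15) as a dashed line. The partner receptor list had the highest median of the 10 (0.48), and the clock lists lay far apart (1.69 and -0.86).

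Other differences ran with genotype in the same libraries. Of the clock genes in phase with *Arntl*, 3 of 3 tested were higher, and *Bmal1* (the gene *Arntl*) had 0.241 and 0.243 TPM in the WT livers against 5.89 and 4.05 TPM in the KO livers (difference 2.25, adjusted p = 0.154 from limma). Of the clock genes opposite to it, 6 of 7 were lower by mean and *Dbp*, a clock output factor, fell by 3.08 (adjusted p = 0.0193 from limma). Its difference stayed negative in every alternative run on TPM (-3.31 to -2.44), but the adjusted p was 0.170 to 0.355 when single libraries were omitted, 0.438 without moderation and 0.0577 without the filter. Over the 2 genes of this list with reads in the CPM table the median was 0.77. *Ppargc1a* is known to vary over the day, and the part of the clock genes' difference in its level was not tested. The summed TPM of 5 cholangiocyte markers was 14.6 and 15.9 in WT and 37.9 and 24.5 in KO livers, with *Krt19* between 0.196 and 1.28 TPM, and that of 6 stellate cell and fibroblast markers was 54.6 and 45.5 in WT and 84.1 and 63.4 in KO. Of these markers 2 of 2 and 5 of 5 tested genes were higher by mean, compared with 66.7% of all tested genes. None of either list was at 0 in all libraries. KO replicate 1, the highest library for *Ppargc1a* and *Pprc1*, was the highest for both sums. The part of these cells in the results was not tested. Higher by mean were also 6 of 6 endothelial and 5 of 8 hepatocyte markers. Lower by mean were 5 of 7 Kupffer cell, 2 of 2 neutrophil and monocyte and 4 of 5 erythroid markers among tested genes. WT replicate 3 had the highest neutrophil and monocyte sum. The sums of 7 Kupffer cell markers (75 to 194 TPM), 8 hepatocyte markers (49174 to 70605 TPM), 6 endothelial markers (43.3 to 67.0 TPM), 6 lymphocyte markers (2.62 to 3.68 TPM), 5 neutrophil and monocyte markers (2.40 to 44.5 TPM) and 5 erythroid markers (719 to 911 TPM) are given over all 4 libraries.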

How the data were processed

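Liver RNA of 4 mice was sequenced on a MiSeq by the authors, 1 library per mouse. The limma p-values rest on the spread between these mice, moderated with that of other genes of similar level. Without moderation the standard error of *Tfb2m* was 0.096 in place of 0.20. The authors quantified transcripts with salmon against mm10 and deposited TPM per gene, with a log2(TPM + 1) copy. They also deposited TMM-normalized CPM from HTSeq counts on mm10 alignments, a count-based signal in which 100% of values were whole reads within 0.02 reads, and a log2 table of it. A count of 0 allows 3 reads (20.0 to 27.7 CPM), for counting error only. Versions, annotation release and strand setting are not given in the sources used here. Recovered reads were tested as an alternative.

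Groups and replicates followed the labels. The TPM table was read by gene symbol and tested with limma 3.58.1 in R 4.3.3 (lmFit, eBayes with trend, prior degrees of freedom 3.62), with edgeR 4.0.16 and DESeq2 1.42.0 on the recovered reads. Proportions were compared by exact permutation tests. Alternatives were pseudocounts of 0.1 and 5, no filter, a mean of at least 5 TPM, upper quartile scaling, unmoderated variances, the CPM table and each library left out. Scripts were tested on simulated data. Coordinates, overlaps and 31-base stretches come from GENCODE M21 (GRCm38). In the lists at most 4 genes each (2 for the clock lists) with non-overlapping genotypes and an unadjusted p under 0.05 were named, lowest p first. *Ppara*, *Crtc2*, *Polrmt*, *Pck1*, *Acadm*, *Acadvl*, *Alas1*, *Cpt2*, *Sod2*, *Gpx1*, *Prdx3*, *mt-Nd3* and *mt-Nd4l* were named after their values were seen. The 9 factors and all lists were chosen with earlier results of these data known. The Partek ANOVA of the study was not repeated.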

Additional observations from a re-analysis of the deposited data

How the results depend on the processing

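Of the differences of the 9 factors, *Tfb2m*, *Ppargc1a*, *Pprc1* and *Nrf1* kept a positive sign under every alternative run on TPM, and no factor reached an adjusted p under 0.05 in any of them. In the CPM table the list medians also turned for replication and transcription and for rRNA modification (-0.12 each, over 3 genes each). When single libraries were omitted, the difference lay between 0.47 and 1.12 for *Ppargc1a*, 0.40 and 0.95 for *Pprc1*, 0.25 and 0.79 for *Nrf1*, 0.47 and 0.65 for *Tfb2m*, -0.62 and -0.10 for *Esrra*, and it crossed 0 for *Ppargc1b* (-0.56 to 0.24), *Gabpa* (-0.078 to 0.35), *Tfam* (-0.17 to 0.64) and *Tfb1m* (-0.43 to 0.16). In the CPM table *Esrra* (1.74) and *Gabpa* (-0.093) had the opposite sign, and the cause was not tested. Upper quartile scaling gave 0.75 for *Ppargc1a*, 0.62 for *Pprc1*, 0.45 for *Nrf1* and -0.45 for *Esrra*, and a pseudocount of 5 gave 0.28 for *Ppargc1a*, 0.27 for *Pprc1* and 0.26 for *Nrf1*. The number of factors at least 2-fold different was 2 with a pseudocount of 0.1 and 0 to 1 with a library left out, and 6 to 8 factors then did not overlap, since fewer libraries overlap less.

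Over all tested genes, 8 had an adjusted p under 0.05 in limma (1005 unadjusted). There were 9 and 6 with pseudocounts of 0.1 and 5, 8 with a mean of at least 5 TPM or upper quartile scaling, 4 without the filter, 0 without moderation or with any library left out, and 11 in the CPM table. On the recovered reads there were 1 in edgeR's filtered test, 12 without its filter and 1 in DESeq2, tests that held only 1, 3 and 3 of the 9 factors and so say nothing about the other 6. The 353 genes that differed at least 2-fold became 820 and 115 with pseudocounts of 0.1 and 5, 203 with a mean of at least 5 TPM, 637 in the CPM table and 463 to 695 with a library left out. No paired analysis was possible because the labels give no litter or other pairing of the mice. Depth behind the TPM is unknown, which limits the coactivators most, as *Ppargc1a*, *Ppargc1b* and *Pprc1* lay near 1 TPM.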

Other observations

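In the CPM table, 3 of the 9 factors had reads. *Gabpa* had 49 and 42 reads in WT and 71 and 29 in KO livers, more than any other factor, although *Tfam* exceeded it in TPM and was at 0 reads. *Esrra* had 0 and 1 reads in WT and 5 and 3 in KO livers, and *Tfb1m* had 5 and 3 in WT and 1 and 1 in KO livers. Each of these 3 genes overlaps a protein-coding gene on the opposite strand, *Gabpa* with *Atp5j* over 701 bases, *Esrra* with *Trmt112* over 73 bases and *Tfb1m* with *Tiam2* over 12089 bases and *Cldn20* over 660 bases. *Pprc1* overlaps *Ldb1* over 329 bases and was at 0. Because HTSeq's strand setting is not given, reads of a gene and of its partner on the other strand cannot be told apart in these values.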
